A study of Homo sapiens with 6 samples.

Results

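The genes described here are the zinc carriers of the SLC30 and SLC39 families and the genes of copper transport and copper delivery, listed by symbol; the list was drawn up with earlier results of these data known. They number 32 of the 19775 genes with a probe set of their own and were represented by 70 of the 54675 probe sets of the array, those whose annotated symbol was the gene's alone. They were measured in DMS-53, an established human small cell lung cancer line with neuroendocrine features, on 6 Affymetrix U133 Plus 2.0 arrays. Cells were kept for 24 h in RPMI medium with 250 µM of the iron-binding siderophore DFO (2 arrays), in the same medium with 25 µM of the membrane-permeable thiosemicarbazone Dp44mT (2 arrays), or in the medium alone as control (2 arrays). All groups were of this 1 cell line and no other agent was named for any of them. Each group has an array of set 1 and an array of set 2, by the numbering of the titles, and values are given in that order. Whether the sets were separate cultures is not stated, so a p-value reflects array-to-array spread that may be technical only.

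Most SLC30 proteins (ZnT) move zinc out of the cytosol, across the plasma membrane or into vesicles and the Golgi. SLC39 proteins (ZIP) move it the other way, into the cytosol. When free zinc rises, the zinc-finger factor MTF1 binds metal response elements and drives metallothionein genes and SLC30A1. Copper enters through SLC31A1 (CTR1) and is handed by small chaperones to the secretory pathway pumps ATP7A and ATP7B, to superoxide dismutase and to cytochrome c oxidase in mitochondria. Dp44mT is known to bind copper as well as iron, while DFO is a selective iron chelator.

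Because the metal response element ties the exporter gene to the metallothioneins, its matches were looked up in RefSeq promoter sequence (GRCh38.p14), and 3 promoters are shown. The letters searched were TGCACNC and TGCGCNC on both strands, and overlapping matches counted as 1 site. Each sequence is the 250 bases before the annotated start, 5′ to 3′ on the gene's strand, with the matches in capitals.
SLC30A1 (chr1:211579162-211579411, minus strand): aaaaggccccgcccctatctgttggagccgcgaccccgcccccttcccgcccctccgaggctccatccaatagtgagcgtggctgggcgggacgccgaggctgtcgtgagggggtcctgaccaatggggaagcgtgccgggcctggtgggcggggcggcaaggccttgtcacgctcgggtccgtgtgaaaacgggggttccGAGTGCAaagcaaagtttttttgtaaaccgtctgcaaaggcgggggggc
SLC30A2 (chr1:26046119-26046368, minus strand): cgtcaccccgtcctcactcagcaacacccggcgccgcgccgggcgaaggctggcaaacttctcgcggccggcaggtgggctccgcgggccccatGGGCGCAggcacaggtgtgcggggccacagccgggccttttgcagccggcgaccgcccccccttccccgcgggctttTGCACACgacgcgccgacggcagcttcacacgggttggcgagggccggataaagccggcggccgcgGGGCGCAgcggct
MT2A (chr16:56608334-56608583, plus strand): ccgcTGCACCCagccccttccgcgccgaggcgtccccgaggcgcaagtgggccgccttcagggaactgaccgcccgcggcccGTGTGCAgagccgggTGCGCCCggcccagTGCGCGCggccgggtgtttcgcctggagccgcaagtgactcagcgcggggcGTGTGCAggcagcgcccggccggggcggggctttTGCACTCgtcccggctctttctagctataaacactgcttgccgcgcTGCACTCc
The SLC30A1 window held 1 site, whose outer base lies 49 bases before the start, the SLC30A2 window 3 and the metallothionein gene MT2A 7. A promoter window was found for 27 of the 32 genes (40 windows, as some genes have several starts). Of these, 18 windows (45.0%) held at least 1 site, against 24.8% of all 35116 windows. At least 2 sites were held by 3 windows (7.5%), against 5.5% of all windows. The SLC30A2 window shown held the most. Genes that lay below control in Dp44mT held sites as well, such as ATP7B with 2 in 1 window. The windows of these genes were also richer in G and C, with a median of 63.4% against 58.0%, and the part of base composition in the difference was not tested. A match is a description of these letters and not evidence of binding.

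The deposited intensities did not share a scale, with array medians of 85.5 and 63.0 in DFO, 83.6 and 49.9 in Dp44mT and 88.9 and 88.8 in control. Levels are therefore given as log2(intensity + 16) after quantile normalization across the 6 arrays, called the log2 level below, and compare a gene with itself only. The first principal component held 71.1% of the variance and placed DFO at −24.8 and 48.3, Dp44mT at 0.32 and 84.4 and control at −44.3 and −64.0. The set 2 chelator arrays thus stood apart. All 12 measured neuroendocrine markers exceeded the filter limit on every array, but they were not steady: in each chelator 1 was called lower and 1 higher. Of all genes 3.37% were called in Dp44mT and 1.10% in DFO. INSM1 had log2 levels of 9.30 and 8.82 in Dp44mT and 10.30 and 10.15 in DFO, against 12.17 and 12.68 in control, and ENO2 11.41 and 11.63 in Dp44mT and 11.16 and 11.31 in DFO, against 9.43 and 9.55 in control. On both Dp44mT arrays 8 of the 12 lay below both controls and 2 above, where 33.1% and 30.3% of all genes did. Of 11 fibroblast markers, 8 or 9 exceeded it on each array. Their summed deposited intensity was 1538 and 2041 in DFO, 1588 and 1893 in Dp44mT and 1824 and 1097 in control. Endothelium and leukocyte markers summed to between 602 and 1558 on any array, and the 8 lung epithelium markers to between 13836 and 30778. Of 10 endothelium markers 6 or 7 exceeded the limit on each array, and of 9 measured leukocyte markers 6 to 9. Single markers were at the floor, such as CDH5 with intensities between 0.02 and 12.6. PECAM1 alone gave 1007.8 of the endothelium sum of 1410 on the Dp44mT array of set 2. No list sum was at or near 0, and the part of other cells in the values below was not tested. In bulk RNA, fewer cells of a type and less RNA per cell cannot be told apart.

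Genes were tested with limma's moderated test over 16868 genes, each represented by its brightest probe set, and called at a Benjamini-Hochberg adjusted p under 0.05. Of the 32 genes, 30 passed the filter on low values (a mean log2 level of 5.55, an intensity of about 31.0), which left out SLC30A4 and SLC39A2. In SLC30A10 and SLC30A3 the mean of 1 group lay below that limit.

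None of the 30 genes was called in DFO against control (0 of 30, where 1.10% of all genes were called), and 3 of 30 had an unadjusted p under 0.05 (13.3% of all genes), 0 higher (5.76% of all genes) and 3 lower (7.59%). In Dp44mT against control 0 of 30 were called as well (3.37% of all genes), and 9 of 30 had an unadjusted p under 0.05 (24.1% of all genes), 1 higher in Dp44mT (8.21% of all genes) and 8 lower (15.9%). Between Dp44mT and DFO, 0 of 30 genes and 0% of all genes were called, with 2 of 30 at an unadjusted p under 0.05 (4.26% of all genes), 1 higher (1.55%) and 1 lower (2.71%) in Dp44mT. On both Dp44mT arrays 2 of 30 lay above both DFO arrays and 8 below, where 14.4% and 13.1% of all genes did. On both Dp44mT arrays 17 of 30 genes lay below both control arrays and 6 lay above, where 33.1% and 30.3% of all genes did. In DFO 13 of 30 lay below and 6 above, where 30.0% and 17.1% of all genes did. The log2 difference was above 0 for 8 genes and below 0 for 22 in Dp44mT (51.7% and 48.3% of all genes), and above 0 for 9 and below 0 for 21 in DFO (46.5% and 53.5%). The median log2 difference over the 30 genes was −0.14 in DFO and −0.25 in Dp44mT, where the medians of all genes were −0.03 and 0.03. The median half-width of the 95% interval, 0.64 on the log2 scale, limits what 2 arrays a group can show.

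**Figure D1:**
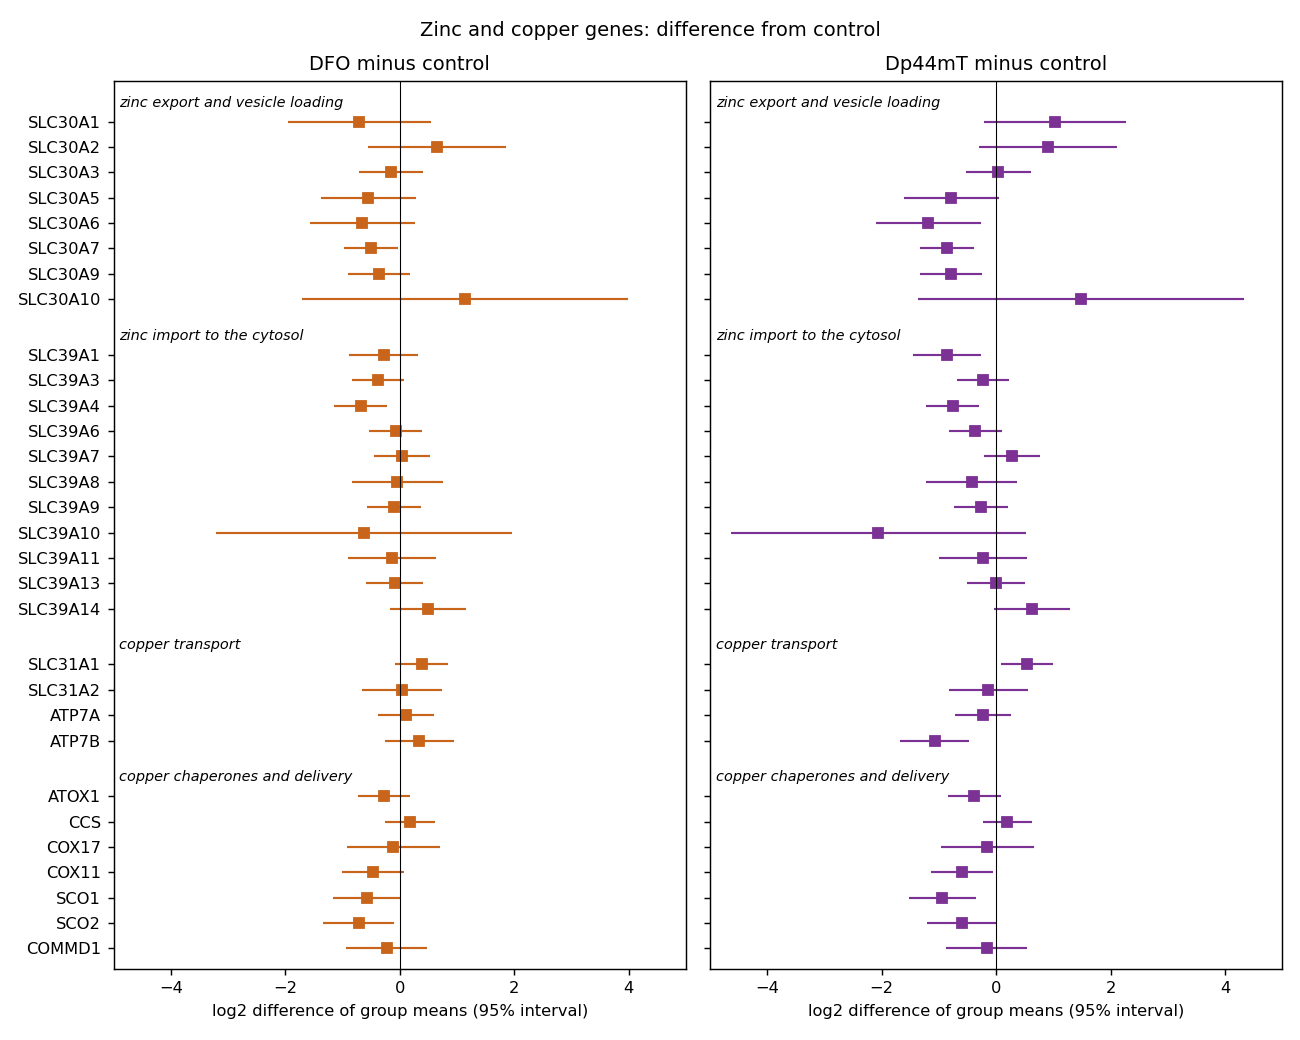
Log2 difference of group means from control for the 30 genes that passed the filter, DFO on the left and Dp44mT on the right, with squares for the estimates and bars for the 95% intervals of limma's moderated test. Most Dp44mT estimates lie left of 0 (22 of 30), and no gene was called in either chelator.

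SLC30A1 had the largest difference between the chelators of the 30 genes. SLC30A1 encodes ZnT1, which carries zinc across the plasma membrane out of the cell. Its brightest probe set had log2 levels of 9.07 and 10.42 in Dp44mT and 8.32 and 7.71 in DFO, against 8.62 and 8.82 in control. Both Dp44mT arrays lay above both controls and both DFO arrays below them. The log2 difference from control was 1.03 in Dp44mT (SE 0.49, 95% interval −0.22 to 2.27, adjusted p = 0.272) and −0.71 in DFO (SE 0.49, −1.95 to 0.54, adjusted p = 0.62). The Dp44mT value was 0.45 between the set 1 arrays and 1.60 between those of set 2. It was 0.35 without the Dp44mT array of set 2 and 0.31 on the deposited scale. Between Dp44mT and DFO the difference was 1.73 (SE 0.49, unadjusted p = 0.0155, adjusted p = 0.922), at doses that differ.

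The second brightest SLC30A1 probe set gave a larger Dp44mT value and was singled out after its values were seen. Its deposited intensity was 1069.7 and 1358 in Dp44mT and 361 and 155 in DFO, against 179.9 and 243 in control. Both Dp44mT arrays thus lay far above the other 4 on the deposited scale too, although their array medians were below those of control. In log2 levels these were 9.93 and 11.28 in Dp44mT, 8.15 and 7.77 in DFO and 7.34 and 7.72 in control. The difference from control was 3.07 in Dp44mT, 8.41-fold (SE 0.47, 95% interval 1.89 to 4.25), at 2.59 between the set 1 arrays and 3.56 between the set 2 arrays. With all 41006 probe sets above the limit tested, its adjusted p was 0.0509, so it was not called (1.63% of those probe sets were called). When it stood for SLC30A1 in the gene-level fit the adjusted p was 0.0429. Over the 20 settings run for the gene the adjusted p lay between that value and 0.819. In DFO this probe set stood at 0.42 (SE 0.47), so the 2 probe sets differ in sign there. The third SLC30A1 probe set did not pass the filter.

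The metallothioneins, small proteins that bind zinc and copper, are set beside SLC30A1 because MTF1 drives genes of this family too. Which of them answer to MTF1 in these cells was not tested. The list counted here holds the metallothioneins and MTF1. Of its 11 genes above the filter, MTF1 among them, MT3 rose in Dp44mT (log2 1.49, SE 0.21, adjusted p = 0.0362) and 10 did not pass. Of all genes 3.37% were called. At an unadjusted p under 0.05, 7 of the 11 were higher and 0 lower, where 8.21% and 15.9% of all genes were. MT3 levels were 8.78 and 8.81 in Dp44mT and 8.66 and 8.49 in DFO, against 7.09 and 7.52 in control. The gene thus lay above both controls in DFO as well as in Dp44mT. In DFO 0 of 11 passed (1.10% of all genes), with 1 higher at an unadjusted p under 0.05 (5.76%). MT2A, MT1X and MTF1 are named after their values were seen, and near-identical metallothionein copies can share signal on their probe sets. MT2A had log2 levels of 11.66 and 13.10 in Dp44mT and 11.19 and 10.09 in DFO, against 10.32 and 10.26 in control. MT1X had 11.20 and 12.81 in Dp44mT and 10.75 and 9.40 in DFO, against 9.73 and 9.55 in control. As for the brightest SLC30A1 probe set, the Dp44mT array of set 2 was the highest for both, and the DFO array of set 2 the lowest. The list median was 2.30 in Dp44mT (1.35 in set 1 and 3.26 in set 2) and 0.40 in DFO (1.16 and −0.16), so in DFO the sets differ in sign. MTF1 itself stood at 0.16 (SE 0.24) in Dp44mT and −0.04 (SE 0.24) in DFO.

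**Figure D2:**
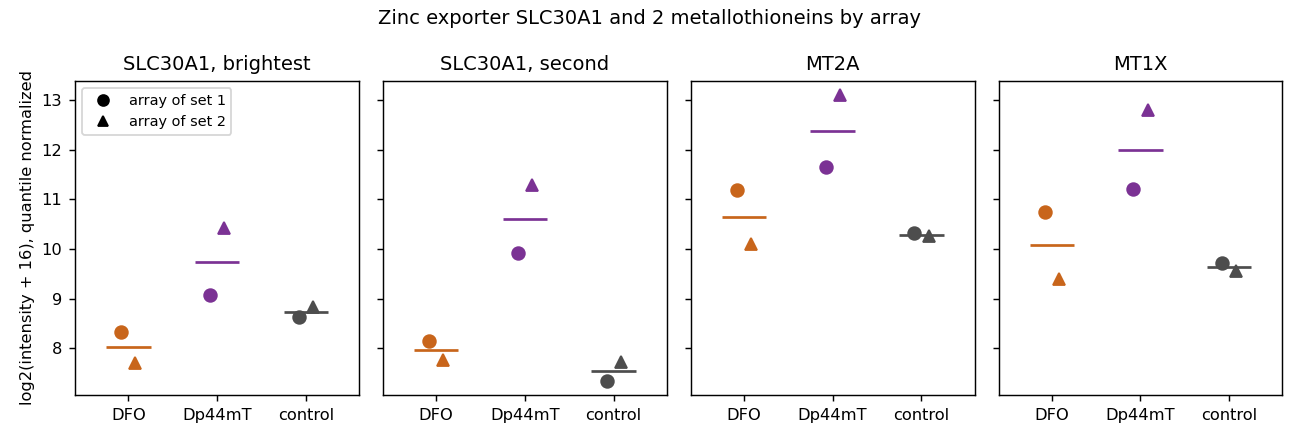
Log2 levels (quantile normalized) of SLC30A1 by its brightest and second brightest probe sets and of MT2A and MT1X in DFO, Dp44mT and control, with circles for set 1 arrays, triangles for set 2 arrays and bars for group means. Both Dp44mT arrays lie above both control arrays in every panel, and the DFO arrays lie below control for the brightest SLC30A1 probe set and above it for the second.

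SLC30A6 encodes ZnT6, the partner subunit of SLC30A5 in a Golgi zinc carrier. Its brightest probe set had log2 levels of 6.90 and 6.25 in Dp44mT and 7.51 and 6.69 in DFO, against 7.74 and 7.78 in control. All chelator arrays lay below both controls, with log2 differences of −1.19 in Dp44mT (SE 0.36, adjusted p = 0.136) and −0.66 in DFO (SE 0.36, adjusted p = 0.528). The second probe set of the gene went the other way, at 1.12 in Dp44mT (SE 0.45) and 0.38 in DFO (SE 0.45), while the third gave −0.81 and −0.45, so the gene has no settled direction.

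SLC30A7 (Golgi carrier ZnT7) and SLC30A9 (mitochondrial zinc exporter ZnT9) are named after their values were seen. SLC30A7 had log2 levels of 8.71 and 8.78 in Dp44mT and 9.23 and 8.97 in DFO, against 9.52 and 9.69 in control. The groups did not overlap, and the difference from control was −0.87 in Dp44mT (SE 0.18, adjusted p = 0.0749) and −0.51 in DFO (SE 0.18, adjusted p = 0.34). The second probe set of SLC30A7 gave −0.88 in Dp44mT and −0.54 in DFO. The third gave −0.07 and 0.12, so the probe sets differ in sign in DFO. SLC30A9 stood at −0.79 in Dp44mT (SE 0.21, adjusted p = 0.11), with −0.77 from its other probe set. The 5 probe sets of SLC30A5 ran from −1.14 to −0.31 in Dp44mT and from −0.66 to −0.17 in DFO.

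SLC30A10, whose product exports manganese, was highest on the set 2 chelator arrays. Its log2 levels were 5.18 and 8.38 in Dp44mT and 5.64 and 7.26 in DFO, against 5.19 and 5.43 in control. The Dp44mT array of set 1 was not above control, and the gene passed the filter through the set 2 arrays. The difference of 1.47 in Dp44mT (SE 1.12, adjusted p = 0.417) became −0.12 without the Dp44mT array of set 2. SLC30A2 (vesicular carrier ZnT2), named after its values were seen, also had higher log2 levels on the set 2 chelator arrays. Its levels were 8.47 and 9.52 in Dp44mT and 8.25 and 9.24 in DFO, against 8.11 and 8.09 in control. Its deposited intensity differed little between the sets. It was 363.6 and 393.3 in Dp44mT and 389.7 and 426.8 in DFO, against 319.0 and 326.6 in control. The deposited values share no scale, and the array medians were lower in set 2 (63.0 in DFO and 49.9 in Dp44mT) than in set 1 (85.5 and 83.6). The part of scaling in the gap between sets was not tested. Some fibroblast and endothelium markers were, as SLC30A10 was, highest on the set 2 chelator arrays, and others were not. DCN had log2 levels of 7.14 and 9.51 in Dp44mT and 7.14 and 8.92 in DFO, against 7.59 and 5.70 in control. POSTN had 7.68 and 9.85 in Dp44mT and 7.62 and 9.26 in DFO, against 7.91 and 6.07 in control. PECAM1 had 9.17 and 10.87 in Dp44mT and 8.75 and 10.50 in DFO, against 9.32 and 8.04 in control. KDR and FAP of the same lists were instead lowest on the Dp44mT array of set 2. KDR had 6.04 and 5.48 in Dp44mT and 7.75 and 6.80 in DFO, against 6.26 and 5.72 in control. FAP had 5.32 and 4.24 in Dp44mT and 5.52 and 4.96 in DFO, against 5.57 and 5.25 in control. These markers are named after their values were seen, and the part of other cells in the SLC30A10, SLC30A2 and SLC39A2 values was not tested. SLC30A3, a carrier of synaptic vesicles, overlapped control in both chelators. Of SLC30A4, not tested, the 3 probe sets had mean log2 levels between 4.60 and 5.40.

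Over the 8 exporters and vesicle loaders tested, 0 were called in either chelator (3.37% of all genes in Dp44mT and 1.10% in DFO). At these shares a count of 0 in a list this small says little. The median log2 difference was −0.37 in Dp44mT, with 4 above 0 and 4 below. It was −0.44 in DFO, with 2 above 0 and 6 below. Of all genes 48.3% lay below 0 in Dp44mT and 53.5% in DFO. On the Dp44mT arrays 4 of the 8 lay below both controls and 2 above (33.1% and 30.3% of all genes). In DFO 5 of the 8 lay below both and 2 above (30.0% and 17.1%). The range in Dp44mT ran from −1.19 to 1.47. The 1.47 is that of the manganese exporter SLC30A10, and the 8 also include the mitochondrial SLC30A9.

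Of the 11 zinc importers tested, 9 had log2 differences below 0 in Dp44mT and 9 in DFO (48.3% and 53.5% of all genes). None was called in either (3.37% and 1.10% of all genes). The median was −0.27 in Dp44mT and −0.10 in DFO. On the Dp44mT arrays 7 of the 11 lay below both controls and 2 above, where 33.1% and 30.3% of all genes did. In DFO 4 of the 11 lay below both and 1 above, where 30.0% and 17.1% of all genes did. SLC39A10 (ZIP10), a plasma membrane zinc importer that MTF1 represses in mouse and zebrafish, was dim on 1 array. Its log2 levels were 8.11 and 5.0 in Dp44mT and 8.46 and 7.51 in DFO, against 8.60 and 8.62 in control. The deposited intensity on the Dp44mT array of set 2 was 10.2, against 279 in set 1 of Dp44mT and 456 and 500.9 in control. All chelator arrays lay below control, but the difference of −2.06 in Dp44mT (SE 1.02, adjusted p = 0.283) was −0.49 between the set 1 arrays and −3.62 between the set 2 arrays. Since 10.2 lies below the filter limit, the pseudocount sets that last value, and the difference of both sets was −1.45 with a pseudocount of 64 and −2.50 with 1. Without the Dp44mT array of set 2 it was −0.50. The gene has a single probe set. Its 2 promoter windows held 0 matches to the metal response element, and bases after the start were not searched.

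SLC39A4 (ZIP4), the zinc uptake carrier of the intestine, lay below control in both chelators. It had log2 levels of 8.87 and 8.61 in Dp44mT and 8.87 and 8.76 in DFO, against 9.44 and 9.55 in control. The difference was −0.76 in Dp44mT (SE 0.18, adjusted p = 0.0916) and −0.68 in DFO (SE 0.18, adjusted p = 0.22). The 4 chelator arrays did not overlap the controls. SLC39A1 (ZIP1), a widely expressed plasma membrane importer, had 8.07 and 7.87 in Dp44mT and 8.77 and 8.33 in DFO, against 8.98 and 8.69 in control. It stood at −0.86 in Dp44mT (SE 0.24, adjusted p = 0.113) and at −0.29 in DFO (SE 0.24), where 1 DFO array lay between the controls.

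SLC39A14 (ZIP14), which carries iron and manganese as well as zinc, lay above control on all chelator arrays and is named after its values were seen. Its log2 levels were 8.88 and 8.66 in Dp44mT and 8.86 and 8.40 in DFO, against 7.92 and 8.36 in control. The difference was 0.63 in Dp44mT (SE 0.26, adjusted p = 0.222) and 0.49 in DFO (SE 0.26, adjusted p = 0.512). By set it was 0.96 and 0.30 in Dp44mT and 0.94 and 0.04 in DFO. Over the settings run it lay between −0.04 and 0.85 in Dp44mT and between 0.18 and 0.72 in DFO. SLC39A7 (ZIP7), which releases zinc from the endoplasmic reticulum, stood at 0.27 in Dp44mT and 0.04 in DFO. SLC39A3, SLC39A6, SLC39A8, SLC39A9, SLC39A11 and SLC39A13 lay between −0.43 and −0.00 in Dp44mT and between −0.38 and −0.05 in DFO. The 5 probe sets of SLC39A8 above the limit ran from −0.43 to 0.45 in Dp44mT. SLC39A2, not tested, had intensities of 11.6 and 73.5 in Dp44mT and 12.6 and 40.1 in DFO, against 14.0 and 14.7 in control, with the set 2 chelator arrays again the highest.

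**Figure D3:**
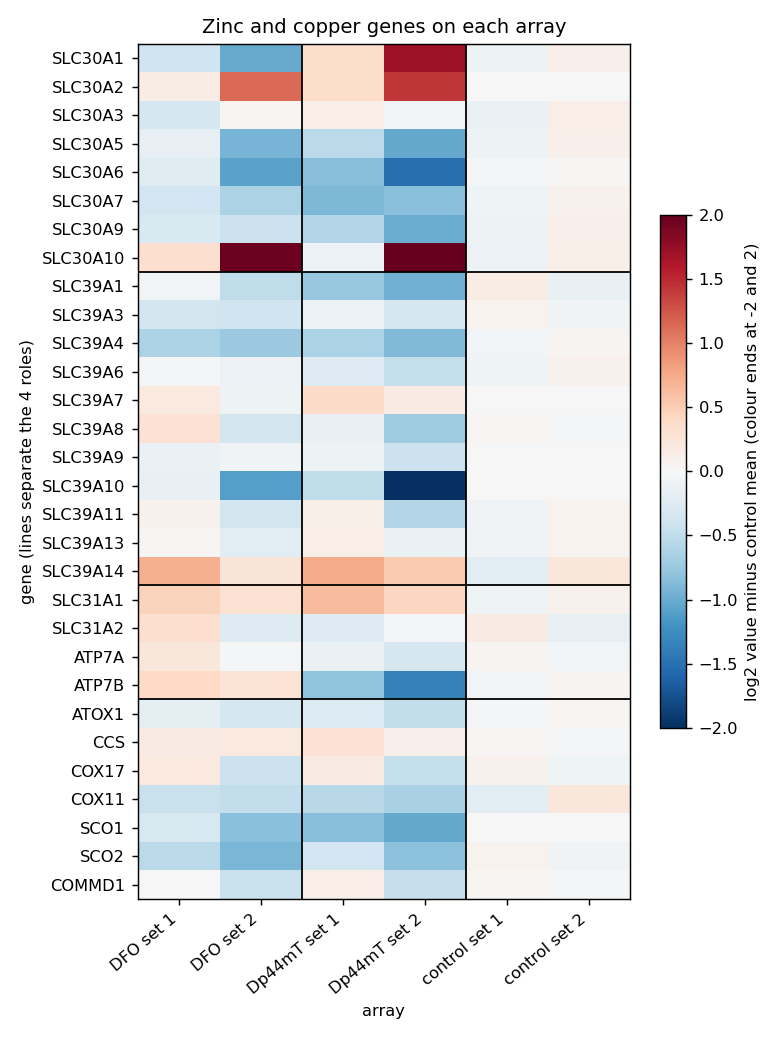
Log2 level of each gene on each array minus the gene's control mean, with DFO, Dp44mT and control arrays from left to right and genes grouped by role, red for higher and blue for lower. SLC30A10 (8.38) and SLC39A10 (5.0) reach their extremes on the Dp44mT array of set 2, while ATP7B is below control in both Dp44mT arrays and above it in both DFO arrays.

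In copper transport, ATP7B took opposite sides of control in the 2 chelators. ATP7B is the copper pump mutated in Wilson disease, which loads secreted proteins and exports copper. Its log2 levels were 7.27 and 6.72 in Dp44mT and 8.46 and 8.35 in DFO, against 8.01 and 8.13 in control. The difference from control was −1.07 in Dp44mT, 2.11-fold lower (SE 0.24, 95% interval −1.68 to −0.47, adjusted p = 0.079), and 0.34 in DFO (SE 0.24, −0.26 to 0.94, adjusted p = 0.624). Between Dp44mT and DFO it was −1.41 (SE 0.24, unadjusted p = 0.00164, adjusted p = 0.922), with the groups apart. It was −0.74 between the set 1 arrays of Dp44mT and control and −1.41 between those of set 2. Its other probe set did not pass the filter.

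ATP7A, the copper pump mutated in Menkes disease, lay below both controls on the Dp44mT arrays while DFO overlapped control. It had log2 levels of 6.59 and 6.38 in Dp44mT and 6.95 and 6.69 in DFO, against 6.78 and 6.66 in control. The differences were −0.23 in Dp44mT (SE 0.19, adjusted p = 0.444) and 0.10 in DFO (SE 0.19, adjusted p = 0.84), with 95% intervals of −0.72 to 0.25 and −0.38 to 0.59.

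SLC31A1 (CTR1), the high-affinity copper importer, lay above control on all chelator arrays. The log2 levels of its brightest probe set were 9.24 and 9.04 in Dp44mT and 9.05 and 8.91 in DFO, against 8.52 and 8.68 in control. The difference was 0.54 in Dp44mT (SE 0.18, adjusted p = 0.161) and 0.38 in DFO (SE 0.18, adjusted p = 0.465). Without scaling the arrays, which put the all-gene median at −0.50 in Dp44mT, the SLC31A1 value was −0.15. The second probe set gave 1.08 in Dp44mT (SE 0.36) and 1.00 in DFO (SE 0.36), and the third and dimmest 0.02 and 0.15. SLC31A2 (CTR2), its intracellular relative, stood at −0.14 in Dp44mT and 0.04 in DFO. The median of the 4 copper transport genes was −0.18 in Dp44mT and 0.22 in DFO, with 0 called (3.37% and 1.10% of all genes).

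The copper chaperones lay mostly below control in both chelators. SCO1 and SCO2 are paired mitochondrial proteins that insert copper into the COX2 subunit of cytochrome c oxidase. SCO1 had log2 levels of 6.20 and 6.02 in Dp44mT and 6.74 and 6.21 in DFO, against 7.06 and 7.04 in control. Its difference was −0.94 in Dp44mT (SE 0.23, adjusted p = 0.0949) and −0.58 in DFO (SE 0.23, adjusted p = 0.387). SCO2 had 8.77 and 8.33 in Dp44mT and 8.62 and 8.24 in DFO, against 9.22 and 9.09 in control. It stood at −0.60 in Dp44mT (SE 0.24, adjusted p = 0.213) and −0.72 in DFO (SE 0.24, adjusted p = 0.306). For both genes all 4 chelator arrays lay below both controls.

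COX11, which delivers copper to the COX1 subunit, had log2 levels of 10.24 and 10.14 in Dp44mT and 10.35 and 10.30 in DFO, against 10.57 and 11.01 in control. The difference was −0.60 in Dp44mT (SE 0.21, adjusted p = 0.174) and −0.47 in DFO (SE 0.21, adjusted p = 0.441). All 4 probe sets of COX11 were below 0, from −1.12 to −0.31 in Dp44mT and from −0.79 to −0.41 in DFO. ATOX1, the chaperone of ATP7A and ATP7B, stood at −0.38 in Dp44mT and −0.27 in DFO, with all chelator arrays below control. CCS, the chaperone of superoxide dismutase SOD1, was at 0.19 and 0.17, the only chaperone above 0. COX17, which feeds SCO1 and COX11, was read by a dim probe set and stood at −0.15 in Dp44mT and −0.11 in DFO, and COMMD1, a regulator of ATP7A and ATP7B trafficking, at −0.17 and −0.23. Of 7 chaperone genes, 6 lay below 0 in each chelator (48.3% of all genes in Dp44mT and 53.5% in DFO). Their medians were −0.38 in Dp44mT and −0.27 in DFO, with 0 called (3.37% and 1.10% of all genes).

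**Figure D4:**
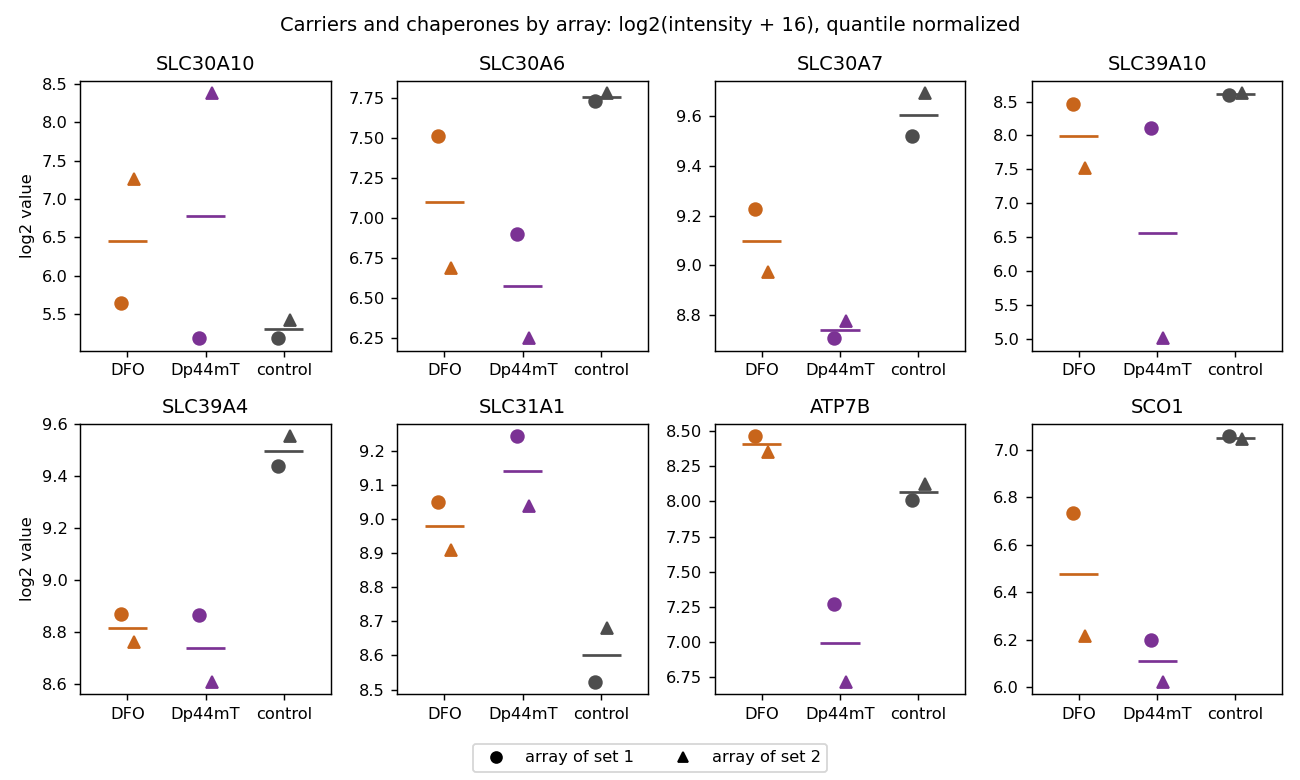
Log2 levels (quantile normalized) of 8 genes by array in DFO, Dp44mT and control, circles for set 1, triangles for set 2, bars for group means, and a separate scale in each panel. In SLC30A7, SLC39A4 and SCO1 all chelator arrays lie below both controls, in SLC31A1 above them, and in SLC30A10 and SLC39A10 the set 2 Dp44mT array is the farthest from control.

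Set side by side in Dp44mT against control, the median log2 differences were −0.37 for zinc export, −0.27 for zinc import, −0.18 for copper transport and −0.38 for copper delivery. In DFO they were −0.44, −0.10, 0.22 and −0.27. The order is not firm: zinc export in Dp44mT was −0.0328 with the probe sets of a gene averaged, when zinc import was −0.19, and −0.79 with a filter at the 50th percentile. By set, the Dp44mT medians were −0.22 in set 1 and −0.55 in set 2 for zinc export, −0.17 and −0.57 for zinc import, −0.31 and −0.06 for copper transport and −0.23 and −0.53 for copper delivery. In DFO they were −0.21 and −0.62 for zinc export, 0.06 and −0.33 for zinc import, 0.31 and 0.13 for copper transport and −0.16 and −0.42 for copper delivery. DFO and Dp44mT share their control arrays.

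Calls were made for 3.37% of all genes in Dp44mT and 1.10% in DFO. None of 12 further genes of mitochondrial copper delivery was called and 0 of 14 copper and zinc enzymes. The same held for 13 of the COMMD family and its partners and for 5 other zinc carriers and sensors. At limma's unadjusted p under 0.05 there were 3, 1, 4 and 3 of them in Dp44mT and 1, 0, 2 and 1 in DFO, in the same order of lists, where 24.1% and 13.3% of all genes had one. Medians in Dp44mT and DFO were −0.24 and −0.22 for mitochondrial copper delivery, 0.08 and 0.05 for the enzymes, −0.39 and −0.30 for the COMMD list and −0.44 and −0.21 for the zinc list. None of 7 metal reductases and divalent metal transporters was called (3 in Dp44mT and 1 in DFO at an unadjusted p under 0.05). Their median was −0.40 in Dp44mT and −0.31 in DFO, with 5 of the 7 below 0 in each. The list includes, named after its values were seen, the transferrin receptor gene TFRC, which iron loss is known to raise. TFRC went the other way from most of the list. TFRC had log2 levels of 12.38 and 12.28 in Dp44mT and 12.47 and 12.46 in DFO, against 11.55 and 11.71 in control. It stood at 0.70 in Dp44mT (SE 0.17, adjusted p = 0.0909) and 0.84 in DFO (SE 0.17, adjusted p = 0.128), with all chelator arrays above both controls.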

How the data were processed

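The deposited values are linear probe set intensities made by the authors. The submitters' processing notes name Affymetrix Expression Console (version 1.1), and the summarization and normalization are not given in the sources used here. Intensities (plus 16) were taken to log2 and quantile normalized across the 6 arrays. Probe set symbols came from the platform annotation: 41097 probe sets had 1 symbol, 1801 several and 11777 none. Each gene took its brightest single-symbol probe set, genes below the 25th percentile were left out, and 16868 of 19775 were tested with limma 3.58.1 (R 4.3.3), all groups in 1 model, with Benjamini-Hochberg adjustment. The script was tested on simulated data. The number of arrays limits the precision. Genes given in full are those called and, per role, the 3 with the largest difference of either chelator from control. The members and lists were chosen with earlier results of these data known. Promoter sequences are RefSeq's (GRCh38.p14). Alternatives were other scalings, pseudocounts, filters and probe set rules, every probe set tested, a replicate block, the contrast's groups alone, another variance prior and leaving arrays out.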

Additional observations from a re-analysis of the deposited data

How the results depend on the processing

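No member was called in DFO against control under any alternative. Between Dp44mT and DFO no gene at all was called under any, so that count of 0 says nothing about stability, and likewise for either chelator where one of its own or a control array was left out. In Dp44mT against control an intensity trend and robust prior called 1 member (SLC30A7, limma adjusted p = 0.0383), where 1372 of all 16868 genes were called. The second SLC30A1 probe set for the gene gave 1 member, where 571 of all 16868 were called. A replicate block with control arrays crossed gave 6, where 2758 of all 16868 were called. The last 2 were chosen after seeing the data. The set numbers went together in the chelators (correlation of set deviations 0.84 for Dp44mT with DFO) but not with control (−0.35 for Dp44mT and −0.25 for DFO). The plain replicate block called 0 members in each comparison, and between Dp44mT and DFO it called 0 of all genes, with 1215 at an unadjusted p under 0.05 against 718 without it. Crossing the pairs called 2758 of all genes in Dp44mT and 511 in DFO, against 569 and 185 without a block and 909 and 169 with the plain block. Over all settings the all-gene counts ran from 0 to 2758 in Dp44mT and 0 to 511 in DFO, the 0 from leaving out an array. On the deposited scale, where calls split 25 higher and 41 lower in Dp44mT (323 and 246 after quantile normalization) and 18 and 8 in DFO (175 and 10), the medians were −0.85 and −0.79 for zinc export in Dp44mT and DFO, −0.99 and −0.47 for zinc import, −0.53 and −0.0327 for copper transport and −1.12 and −0.67 for copper delivery. With array medians subtracted, Dp44mT medians were −0.62 for zinc import and −0.74 for copper delivery, and linear scaling gave −0.00496 for copper transport. The zinc export median in Dp44mT was −0.64 with no filter, −0.79 with a 50th percentile filter and −0.0328 with probe sets averaged. The copper transport median in DFO ran from 0.13 to 0.36 as single arrays were left out, and was 0.36 without both set 2 chelator arrays. Of single genes, SLC30A1 in DFO was 0.42 by its second probe set. ATP7A in DFO was −0.11 on the deposited scale and ran from −0.0262 to 0.23 as arrays were left out. SLC30A10 in Dp44mT ran from −0.12 to 3.07 and was −0.12 without both set 2 chelator arrays. SLC31A1 in Dp44mT was −0.15 on the deposited scale. The causes were not tested.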
